A study of Mus musculus with 88 samples.

Results

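The 10 genes described here are the Notch receptors Notch1, Notch2, Notch3 and Notch4, the ligands Dll1, Dll3, Jag1 and Jag2, and the targets Hes1 and Hes5, chosen by name and followed through every expression table of a study of mouse embryonic stem cells that lack subunits of Polycomb repressive complex 2. The choice was made with earlier results of these data known, so the shares of members called below are descriptive. All 10 were in the tables, among 53697 gene identifiers for mesoderm, 54393 for endoderm, 26007 for bulk embryoid bodies and 15830 in the single-cell table. Notch is a receptor on one cell that is cut when a ligand on a neighbouring cell pulls on it. The released inner part enters the nucleus, joins the DNA-binding factor RBPJ and switches on genes such as Hes1 and Hes5, which encode repressors. In the embryo the pathway takes part in segmenting the presomitic mesoderm, in keeping neural progenitors from maturing and in arterial development. Polycomb repressive complex 2 methylates lysine 27 of histone H3, and many developmental genes carry that mark in stem cells. MTF2 and JARID2 are accessory subunits that help to bring the complex to its targets, and EED is a core subunit.

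The study had 3 experiments. In directed differentiation, WT, Mtf2 null and Jarid2 null cells, all given as strain E14 by the labels, were collected undifferentiated in serum with LIF, the cytokine that holds stem cells in that state, and after 5, 24 and 48 h, as duplicate libraries of every genotype at every time, in 2 series. The mesoderm series received Activin A, BMP4, FGF2 and an activator of Wnt signalling for 24 h and then BMP4 with an Activin inhibitor. The endoderm series received Activin A, FGF2 and the same Wnt activator for 24 h and then Activin A with a BMP inhibitor. The study describes such duplicates as technical, so p-values measure the spread between these libraries. In bulk embryoid bodies, floating aggregates that differentiate once LIF is removed, lines labelled Mtf2 null, Jarid2 null and Eed null stood beside the background-matched lines Pcl1-3 WT, JM8 and J1 on days 0, 2, 4 and 7, with 1 sample per line and day, and the day 0 samples are named as monolayer cultures. In single cells, viable cells were sorted from aggregates of WT and of the Eed, Jarid2 and Mtf2 nulls on days 0, 4, 7 and 10, with 1 library per genotype and day. The labels give E14 for all of these too. They name no background-matched WT line in single cells or in directed differentiation. The Mtf2 null line carries a gene trap, the other nulls are given as knockouts, and each genotype is 1 line, so that a line and a genotype cannot be told apart.

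The directed libraries held 9111880 to 16898264 estimated counts in mesoderm and 9889592 to 16372804 in endoderm, the embryoid body columns 3005707 to 22944105 reads, and the single-cell libraries 202 to 347 cells with a median of 4997 to 10603 UMIs (unique molecules) per cell. In directed differentiation Mtf2 lay at 30.2 to 38.2 CPM (counts scaled to a common library size) in all 16 Mtf2 null libraries against 206 to 509 CPM in WT. Jarid2, by contrast, lay at 189 to 622 CPM where the label is Jarid2 null and 307 to 661 CPM in WT, so its mRNA does not check that label. In embryoid bodies the targeted genes did not separate the labels either. Mtf2 was at 315 CPM on day 0 under the label Mtf2 null, but at 127 CPM under Jarid2 null and 207 CPM under Eed null, which puts the day 0 labels in doubt. In single cells each targeted gene was low on day 0 in its own null, with Mtf2 at 56.3 against 793.5 CPM, Jarid2 at 145.8 against 594.5 CPM and Eed at 11.49 against 478 CPM in WT. Undifferentiated libraries of the 2 directed series with the same number were closer to each other (1.64 to 2.53 times sampling noise in the median squared difference over 6 pairs) than the 2 of one series (2.92 to 5.98 times), so they may not be independent. The 2 endoderm columns used for Jarid2 null at 48 h carry 28 h in their names and were matched by library number to samples labelled 48 h, so the time behind every value of that group is in doubt. The defining endoderm markers Sox17, Foxa2, Cxcr4, Cer1 and Gsc summed to only 0.866 to 0.942 CPM in WT at 48 h of the endoderm series, with 1 of 5 at 0, so "endoderm" below names the treatment. A trophoblast list of 4 genes was at 3.9 to 22.9 CPM over all directed libraries.

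Promoter sequence is shown for 3 members: Hes5 for its RBPJ motif, and Notch4 and Notch3 because their levels differed between genotypes. Polycomb complexes tend to occupy promoters rich in CpG, the cytosine-guanine step, and the letters GTGGGAA are the core bound by RBPJ. On either strand these letters were in 1779 of 32851 promoters (5.42%; RefSeq, GRCm38.p6, 250 bases before the start used in each entry). For Notch1, Dll3, Jag2 and entry 1 of Dll1 these bases lie inside the gene span given below. The Hes5 promoter held 2 copies, on opposite strands and without overlap, and no other member with an entry held any. Hes1 had no entry. Capitals mark the GTGGGAA letters or their reverse complement in Hes5 (chr4:154960673-154960922, plus strand) and the CpG steps in Notch4 (chr17:34564045-34564267, plus strand) and Notch3 (chr17:32166891-32167140, minus strand).
Hes5: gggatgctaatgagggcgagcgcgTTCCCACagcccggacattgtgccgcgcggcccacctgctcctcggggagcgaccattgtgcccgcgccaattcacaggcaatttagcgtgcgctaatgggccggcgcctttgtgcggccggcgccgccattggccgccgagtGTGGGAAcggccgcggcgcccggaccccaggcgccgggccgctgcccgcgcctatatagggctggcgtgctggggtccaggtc
Notch4: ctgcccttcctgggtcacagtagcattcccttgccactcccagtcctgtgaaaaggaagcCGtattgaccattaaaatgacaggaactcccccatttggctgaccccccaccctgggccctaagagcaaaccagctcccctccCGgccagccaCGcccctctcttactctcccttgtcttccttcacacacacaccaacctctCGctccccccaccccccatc
Notch3: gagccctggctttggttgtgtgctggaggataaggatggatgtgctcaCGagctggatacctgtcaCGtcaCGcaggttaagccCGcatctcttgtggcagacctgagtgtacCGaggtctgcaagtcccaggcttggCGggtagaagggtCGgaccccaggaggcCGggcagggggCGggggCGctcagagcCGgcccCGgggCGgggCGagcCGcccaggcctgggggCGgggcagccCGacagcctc
The Notch4 promoter held 4 CpG steps, and 37.8% of all promoters held fewer. The Notch3 promoter held 17, and 76.5% held fewer. Among the other members Jag2 had 54, Notch2 34, Hes5 32, Jag1 20, Notch1 16 and Dll3 10, and the 2 entries of Dll1 had 21 and 13, against a median of 6 over all promoters.

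By the GENCODE annotation of GRCm38, Notch1 spans chr2:26457903-26516663 (minus strand), Notch2 chr3:98013527-98150361 (plus), Notch3 chr17:32120820-32166852 (minus) and Notch4 chr17:34564268-34588503 (plus). Dll1 spans chr17:15367354-15376872 (minus), Dll3 chr7:28293553-28302238 (minus), Jag1 chr2:137081456-137116644 (minus) and Jag2 chr12:112907819-112929776 (minus). Hes1 spans chr16:30064384-30067796 (plus) and Hes5 chr4:154960923-154962371 (plus). The levels below count reads over the exons of each gene. Hes5 did not pass the filter on low values in any of the bulk tables, and the other 9 members passed in each.

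The receptors, ligands and targets were expressed at different levels in undifferentiated WT cells, and the order shifted during differentiation. On the scale of CPM per kb of exon, the only one used here to compare genes, Hes1 led in undifferentiated WT cells of the mesoderm series at 12.4, followed by Notch3 at 5.84, Notch4 at 4.35, Notch1 at 4.13, Notch2 at 3.5, Jag2 at 3.25, Jag1 at 1.45, Dll3 at 1.35, Dll1 at 0.511 and Hes5 at 0.306. The ranges of the 2 libraries overlapped between Notch4 and Notch1, Notch1 and Notch2, Notch2 and Jag2, and Jag1 and Dll3, so those neighbours were not separated. The length used was that of all annotated exons of a gene together, 14232 bases for Notch1. It is not the length of the transcripts expressed, so the order of the genes depends on this choice. At 24 h Notch3 had the highest level of the 10, at 18.0 CPM per kb in mesoderm and 16.4 in endoderm. At 48 h Notch3 still led, at 12.3 CPM per kb in mesoderm (where its range overlapped that of Hes1, at 10.1) and 15.8 in endoderm. Notch4 had by then dropped to the ninth place of 10 in both series, at 0.335 and 0.531 CPM per kb, ahead of Hes5 alone, and in endoderm its range overlapped that of Hes5.

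**Figure D1:**
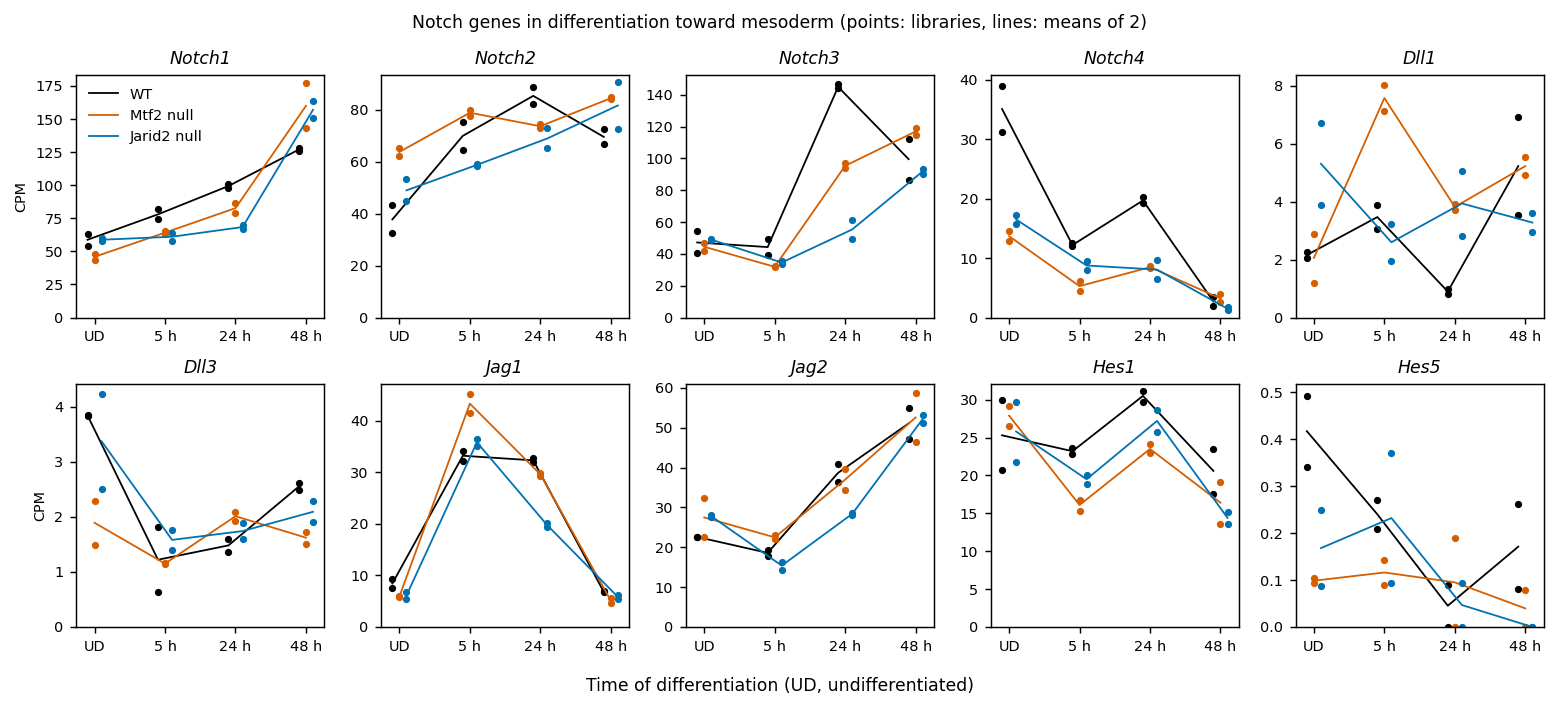
Levels of the 10 members in the mesoderm series, 1 panel per gene, with the time in culture on the x axis and CPM on a linear y axis that starts at 0. Each point is 1 library (2 per genotype and time), lines join the means, and Notch4 falls from 31.2 to 39.0 CPM in undifferentiated WT libraries to 1.88 and 3.53 CPM at 48 h.

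The WT course was tested first, from each time to the next, in edgeR's quasi-likelihood fit over all genes, where a call needed both an adjusted p under 0.001 and more than a 2-fold difference (a log2 fold change past 1 in either direction). Over the 6 steps of the 2 series, 15 of 54 tests of members were called (27.8%; 10 higher and 5 lower), against 3.51% of all gene tests (2.18% higher and 1.34% lower). Per step 2, 2 and 3 members were called in mesoderm, where 4.13%, 4.41% and 4.16% of all genes were, and 2, 2 and 4 in endoderm, where 2.1%, 2.5% and 3.88% were. A lower level in bulk RNA can come from fewer cells of a type or from less RNA per cell, and these cannot be told apart here.

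Among the receptors, Notch4 fell and Notch3 rose. Notch4, the receptor best known from endothelial cells, was at 39.0 and 31.2 CPM in the undifferentiated WT libraries of the mesoderm series, 12.5 and 12.0 at 5 h, 20.2 and 19.2 at 24 h, and 3.53 and 1.88 at 48 h. The 48 h libraries lay below all earlier ones, with a called loss at 5 h (log2 fold change -1.52, SE 0.21, edgeR adjusted p = 2.6e-05) and again from 24 to 48 h (-2.83, SE 0.25, adjusted p = 6.3e-08). Without the second 5 h library the first of these was lost (-1.48, adjusted p = 0.0011). In endoderm Notch4 went from 35.7 and 30.2 CPM through 19.9 and 21.9 at 5 h and 24.2 and 23.6 at 24 h to 5.54 and 3.01 at 48 h, and only the last step was called (-2.47, SE 0.19, adjusted p = 8.3e-09). The summed endothelial marker list (Kdr, Cdh5, Pecam1, Tal1, Etv2), most of it Pecam1, was at 44.6 to 56.3 CPM in undifferentiated WT mesoderm libraries and 54.6 to 68.9 at 48 h, and at 45.2 to 58.7 and 33.9 to 36 CPM in endoderm. The undifferentiated list (Esrrb, Nanog, Zfp42, Pou5f1, Klf2) was at 1920 to 2320 CPM and then 1340 to 1360 in mesoderm, and 1910 to 2190 and then 1050 to 1140 in endoderm, and the part of neither list in the Notch4 level was tested.

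Notch3 was at 39.1 and 49.5 CPM in WT mesoderm libraries at 5 h and at 147 and 144 at 24 h, without overlap (log2 fold change 1.71, SE 0.14, edgeR adjusted p = 7.9e-08). At 48 h it was at 86.7 and 112 CPM there, below both 24 h libraries, a difference that was not called (-0.55, SE 0.14, adjusted p = 6.8e-03). In endoderm it went from 56.5 and 51.9 to 139 and 126 CPM over the same step (1.29, SE 0.14, adjusted p = 1.0e-06) and was at 141 and 114 CPM at 48 h. Notch2 was called in 1 step, in endoderm at 5 h, from 39.1 and 32.2 to 75.6 and 70.4 CPM (1.03, SE 0.12, adjusted p = 6.9e-06). Without the first 5 h library or the second undifferentiated library its log2 fold change was 0.99 or 0.9, under the limit on the fold. Notch1 moved in smaller steps, none of them called. It went from 63.5 and 54.1 CPM in undifferentiated WT mesoderm libraries to 126 and 128 at 48 h, and this longer comparison passed (log2 fold change 1.11), though not without the second undifferentiated library (1.0).

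**Figure D2:**
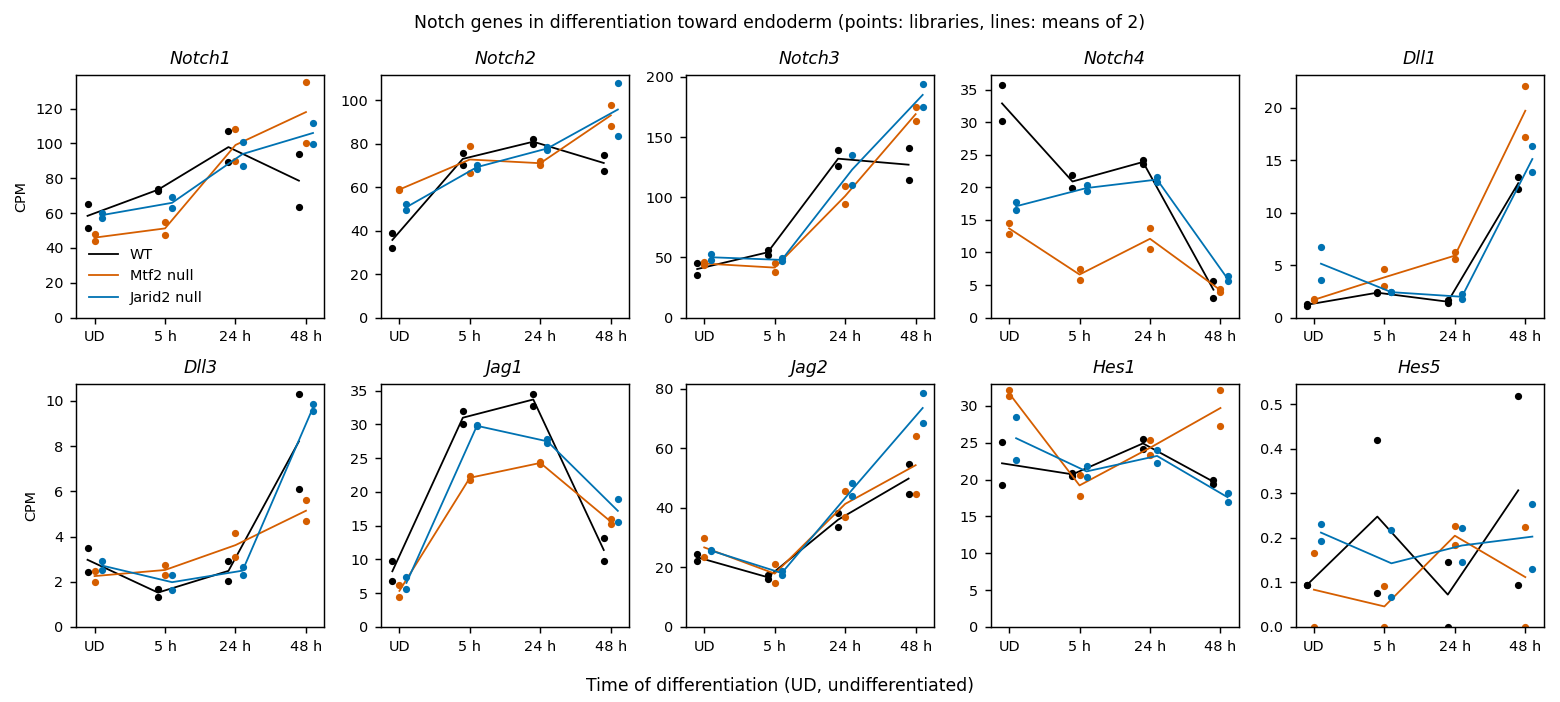
Levels of the 10 members in the endoderm series, drawn as for mesoderm: time on the x axis, CPM on a linear y axis from 0, 1 point per library (2 per genotype and time) and lines through the means. Dll1 stays between 1.14 and 2.39 CPM in WT libraries up to 24 h and reaches 13.4 and 12.2 CPM at 48 h.

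The ligands each had a time course of their own. Jag1, a ligand with a long extracellular part, was at 9.36 and 7.5 CPM in undifferentiated WT mesoderm libraries, 34.2 and 32.2 at 5 h, 32.7 and 31.9 at 24 h, and 6.93 and 6.69 at 48 h. It was thus high at 5 and 24 h alone, with a called gain at 5 h (log2 fold change 1.98, SE 0.13, edgeR adjusted p = 5.2e-09) and a called loss at 48 h (-2.24, SE 0.13, adjusted p = 1.5e-10). The endoderm series gave the same calls, from 9.76 and 6.75 CPM to 32 and 30.1 at 5 h (1.91, SE 0.17, adjusted p = 1.8e-07), and from 32.8 and 34.5 at 24 h to 13.2 and 9.7 at 48 h (-1.55, SE 0.16, adjusted p = 4.1e-07). Jag2 rose from 5 to 24 h in both series, from 19.4 and 17.9 to 40.9 and 36.5 CPM in mesoderm (1.05, adjusted p = 3.4e-05) and from 16.1 and 17.3 to 38.4 and 33.6 CPM in endoderm (1.11, adjusted p = 1.7e-04). Both Jag2 calls rested on single libraries. Without the first 24 h or the second 5 h library the mesoderm log2 fold change was 0.97 or 0.99, and without the first 24 h or either 5 h library the endoderm adjusted p was 0.0034, 0.0063 or 0.0029.

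Dll1, a ligand that activates Notch on neighbouring cells, had a low level until 48 h. In WT endoderm libraries it was at 1.14 and 1.31 CPM undifferentiated, 2.39 and 2.35 at 5 h, 1.67 and 1.34 at 24 h, and 13.4 and 12.2 at 48 h, and the last step was called (log2 fold change 3.09, SE 0.27, edgeR adjusted p = 3.6e-08). In mesoderm Dll1 ended lower, at 3.53 and 6.93 CPM, from 0.994 and 0.802 at 24 h (2.52, SE 0.44, adjusted p = 2.7e-04). The mesoderm call was lost without the first or the second 24 h library (adjusted p = 0.0042 and 0.011) or the second 48 h library (0.0063). Dll3, a ligand that acts inside its own cell and does not activate Notch on neighbours, rose in endoderm, from 2.91 and 2.04 CPM at 24 h to 10.3 and 6.12 at 48 h (1.74, SE 0.27, adjusted p = 6.9e-05). That call was lost without the second 24 h library (adjusted p = 0.0046) or the first 48 h library (0.0035). In WT mesoderm Dll3 was at 2.48 and 2.61 CPM at 48 h, below the 3.84 and 3.83 CPM of the undifferentiated libraries, and no step was called by edgeR. The neural genes Sox1, Pax6, Neurog2 and Nes summed to 16.8 to 22.2 CPM in undifferentiated, 11.4 to 12.2 in 24 h and 55.7 to 71.4 in 48 h WT endoderm libraries, and to 18.6 to 20.3, 7.81 to 11.1 and 20.3 to 40 CPM in mesoderm. Their part in the Dll1 and Dll3 levels was not tested.

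Of the targets, Hes1 stayed within a narrow range. Its WT levels were 29.9 and 20.7 CPM in undifferentiated mesoderm libraries, 23.6 and 22.8 at 5 h, 29.7 and 31.2 at 24 h, and 17.6 and 23.5 at 48 h. In endoderm they ran from 19.2 to 25.5 CPM over all 8 WT libraries, and no step was called in either series. Hes5 had 0 to 0.493 CPM in the 24 mesoderm and 0 to 0.52 CPM in the 24 endoderm libraries, too low to test.

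Loss of Mtf2 was compared with WT at each time. The member that differed most often was Notch4, lower in Mtf2 null cells, and 6 of 72 member tests were called over the 8 comparisons (8.33%; 1 higher and 5 lower), close to the 8.38% of all gene tests (4.53% higher and 3.85% lower). In undifferentiated mesoderm libraries Notch4 was at 12.9 and 14.5 CPM in Mtf2 null against 39.0 and 31.2 in WT (log2 fold change -1.36, SE 0.21, edgeR adjusted p = 3.5e-05; 11.1% of all genes were called). At 5 h the levels were 4.45 and 6.11 against 12.5 and 12.0 CPM (-1.20, SE 0.24, adjusted p = 6.5e-04; 7.56% of all genes), and at 24 h 8.27 and 8.7 against 20.2 and 19.2 CPM (-1.21, SE 0.22, adjusted p = 3.9e-04; 5.72%). At 48 h they overlapped, at 3.91 and 2.54 against 3.53 and 1.88 CPM. Thus all Mtf2 null libraries lay below all WT libraries until 24 h, and not at 48 h. The mesoderm calls were fragile. The undifferentiated one was lost without the first Mtf2 null library (adjusted p = 0.0017) or the first WT library (0.0011), and the 5 h and 24 h ones were lost without any one of their 4 libraries (0.0022 to 0.019 and 0.0038 to 0.0084).

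In endoderm Notch4 was at 14.6 and 12.9 CPM in undifferentiated Mtf2 null libraries against 35.7 and 30.2 in WT (log2 fold change -1.26, SE 0.17, edgeR adjusted p = 3.0e-06; 11.0% of all genes were called). At 5 h it was at 5.76 and 7.47 against 19.9 and 21.9 CPM (-1.66, SE 0.18, adjusted p = 5.6e-07; 7.61%). Neither endoderm call was lost when any one library was left out. At 24 h the values were 13.7 and 10.6 against 24.2 and 23.6 CPM, a log2 fold change of -0.98 (SE 0.17, adjusted p = 1.2e-04) that did not pass the limit on the fold, and at 48 h 4.41 and 3.98 against 5.54 and 3.01 CPM. The summed primitive endoderm list (Gata6, Gata4, Sox7, Dab2), from a lineage that sits beside stem cells in the embryo, was at 101 to 115 CPM in undifferentiated Mtf2 null libraries against 16.4 to 21.4 in WT, and its part in these differences was not tested.

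Fitted together with the series as a term, the undifferentiated libraries gave a Notch4 log2 fold change of -1.30 in Mtf2 null (SE 0.09, edgeR adjusted p = 1.7e-08) and -1.04 under the label Jarid2 null (SE 0.09, adjusted p = 2.7e-06). These were the 2 called tests of 18 (11.1%, against 7.91% of all gene tests, 3.56% lower; 14.7% of genes for Mtf2 null and 1.15% for Jarid2 null). That fit counts same-numbered libraries of the 2 series as independent, which they may not be. It was therefore repeated with their counts summed, which left 2 per genotype. Notch4 was still called, at -1.26 in Mtf2 null (SE 0.15, edgeR adjusted p = 9.9e-06; 11.1% of all genes) and, at the edge of the threshold, -1.03 under the label Jarid2 null (SE 0.15, adjusted p = 0.00099; 0.432%). Without the first mesoderm library labelled Jarid2 null, or the first WT library of either series, the Jarid2 null log2 fold change was -0.97 to -0.99 and missed the limit on the fold.

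The ligand Dll1 was higher in Mtf2 null endoderm cells at 24 h, at 5.54 and 6.25 CPM against 1.67 and 1.34 in WT (log2 fold change 1.97, SE 0.28, edgeR adjusted p = 1.8e-05; 6.58% of all genes were called). This call was lost without the second WT library (1.82, adjusted p = 0.0013). At 24 h of mesoderm Dll1 was at 3.71 and 3.93 CPM in Mtf2 null and 5.07 and 2.81 under the label Jarid2 null, against 0.994 and 0.802 in WT. Neither difference passed in edgeR, at log2 fold changes of 2.09 (SE 0.45, adjusted p = 1.8e-03) and 2.15 (SE 0.45, adjusted p = 2.0e-03), while DESeq2 called both (adjusted p = 4.7e-04 and 2.5e-04). Among the other receptors Notch2 was at 62.1 and 65.5 CPM in undifferentiated Mtf2 null mesoderm libraries against 43.2 and 32.4 in WT, a log2 fold change of 0.76 (adjusted p = 1.3e-04) under the limit on the fold. The target Hes1 was at 32.2 and 27.2 CPM in Mtf2 null endoderm libraries at 48 h against 20 and 19.4 in WT, and this difference did not pass (0.59, SE 0.13, adjusted p = 1.4e-03). No member was called at 48 h in either series by edgeR, where 6.82% and 10.5% of all genes were, with 3 members in mesoderm and 7 in endoderm at an unadjusted p under 0.05, and DESeq2 called 0 as well. The primitive endoderm list then stood at 284 to 301 CPM in Mtf2 null mesoderm and 396 to 466 CPM in Mtf2 null endoderm, against 13.9 to 22.7 CPM in WT.

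**Figure D3:**
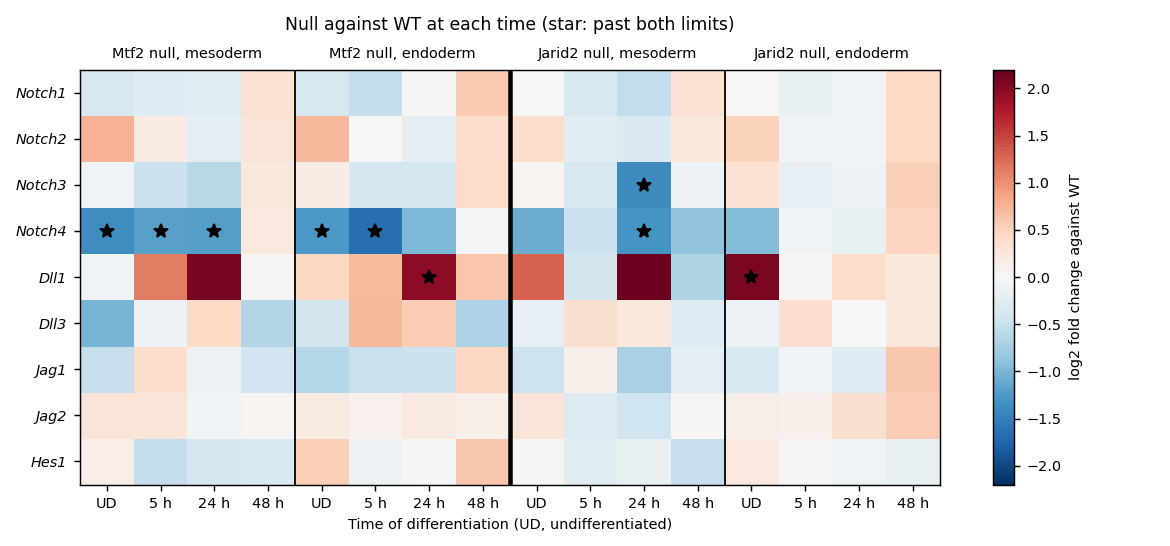
Heat map of the log2 fold change against WT from the edgeR fit (colour) for the 9 tested members (rows), with 1 column for each genotype, series and time. A star marks a called difference, among them Notch4 in Mtf2 null at -1.66 after 5 h of endoderm and Notch3 under the label Jarid2 null at -1.39 after 24 h of mesoderm.

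Under the label Jarid2 null 3 of 72 member tests were called (4.17%; 1 higher and 2 lower), against 0.426% of all gene tests (0.183% higher and 0.243% lower). By time, 0.37%, 0.0%, 1.97% and 0.169% of all genes were called in undifferentiated, 5 h, 24 h and 48 h mesoderm and 0.742%, 0.0363%, 0.0312% and 0.125% in endoderm. Notch3 and Notch4 differed at 24 h of mesoderm. Notch3 was at 49.5 and 61.4 CPM against 147 and 144 in WT (log2 fold change -1.39, SE 0.14, edgeR adjusted p = 5.1e-06), and the call held without any one library. Notch4 was at 6.5 and 9.63 against 20.2 and 19.2 CPM (-1.30, SE 0.22, adjusted p = 4.4e-04), and was lost without the first Jarid2 null library (-1.03, adjusted p = 0.028) or either WT library (0.0067 and 0.0049). With only these 4 libraries in the fit neither passed, at adjusted p = 0.0017 for Notch3 and 0.0052 for Notch4. Jag1 was lower as well, at 19.3 and 20.2 against 32.7 and 31.9 CPM, but under the limit on the fold (-0.71, SE 0.12, adjusted p = 3.2e-04). The primitive streak and mesoderm list (T, Mixl1, Eomes, Mesp1, Hand1) was at 30.5 to 47.0 CPM in these libraries against 69.2 to 72.7 in WT and 53.6 to 57.3 in Mtf2 null, and its part was not tested. At 24 h of endoderm Notch3 was at 135 and 110 CPM under the label and 139 and 126 in WT, and no member was called there by edgeR or DESeq2, with 1 at an unadjusted p under 0.05.

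The third call was of Dll1 in undifferentiated endoderm libraries, at 6.72 and 3.54 CPM under the label Jarid2 null against 1.14 and 1.31 in WT (log2 fold change 2.07, SE 0.31, edgeR adjusted p = 2.3e-04). The related undifferentiated libraries of the mesoderm series held 6.71 and 3.9 against 2.27 and 2.04 CPM and were not called (1.30, SE 0.39, adjusted p = 0.05). The endoderm call was lost without the first Jarid2 null library (1.53, adjusted p = 0.0099), either WT library (0.0053 and 0.0048), or with only these 4 libraries in the fit (0.0095).

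Comparing 48 h with the undifferentiated state within each genotype, 26 of 54 member tests were called (48.1%; 20 higher and 6 lower), against 8.18% of all gene tests (5.08% higher and 3.1% lower). In WT, Mtf2 null and labelled Jarid2 null cells 4, 3 and 2 members were called in mesoderm, with 8.64%, 6.28% and 8.5% of all genes, and 5, 6 and 6 in endoderm, with 8.15%, 8.93% and 8.5%. Notch4 was the 1 member called in all 6 comparisons, always lower, and all 6 lower calls were its own. Its log2 fold change was -3.66 in WT, -2.10 in Mtf2 null and -3.44 under the label Jarid2 null in mesoderm, and -2.93, -1.71 and -1.51 in endoderm. Notch3 was higher in 5 comparisons, at 1.08 in WT and 1.39 in Mtf2 null mesoderm and 1.66, 1.91 and 1.88 in WT, Mtf2 null and labelled Jarid2 null endoderm. Its WT mesoderm call was lost without the second 48 h library (0.89) or the second undifferentiated library (0.88). Dll1 was higher in all 3 endoderm comparisons, at 3.38, 3.53 and 1.54, and in no mesoderm comparison. Jag1 was higher at 48 h of endoderm in both mutants (1.55 in Mtf2 null and 1.39 under the label Jarid2 null) and was not called in WT, where it was at 13.2 and 9.7 against 9.76 and 6.75 CPM. The labelled Jarid2 null libraries of that time are those with 28 h in their column names.

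Whether the change from undifferentiated to 48 h differed between a mutant and WT was tested as an interaction. None of 36 member tests was called by edgeR (0%, against 2.15% of all gene tests), with 10 at an unadjusted p under 0.05, and DESeq2 called 1. Notch4 had the largest interactions among the receptors, its loss being smaller by 1.57 on the log2 scale in Mtf2 null mesoderm (SE 0.36, edgeR adjusted p = 5.2e-03), 1.22 in Mtf2 null endoderm (SE 0.28, adjusted p = 3.3e-03) and 1.42 under the label Jarid2 null in endoderm (SE 0.27, adjusted p = 3.0e-03). The last was the call by DESeq2 (adjusted p = 3.6e-04). For Dll1 the interaction under the label Jarid2 null was -1.96 in mesoderm (SE 0.54, edgeR adjusted p = 0.067) and -1.84 in endoderm (SE 0.38, adjusted p = 5.9e-03).

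Of 36 other genes of the pathway 33 were tested in mesoderm and 32 in endoderm. In Mtf2 null against WT, counts higher and lower were 3 and 0 in undifferentiated mesoderm, 0 and 1 at 5 h, 1 and 1 at 24 h and 2 and 0 at 48 h, and 3 and 0, 0 and 1, 1 and 0, and 3 and 0 at those times of endoderm. In all these were 16 of 260 tests (6.15%), against 8.38% of all gene tests. The median log2 fold change of the list was 0.36 in undifferentiated mesoderm and 0.27 at 48 h, where that of all genes was -0.02 and 0.01, and 0.27 and 0.44 in endoderm, against -0.05 and -0.02. It was smaller between these times, at 0.04 and 0.12 after 5 and 24 h of mesoderm and -0.0 and 0.18 in endoderm. Medians of all genes then ran from -0.02 to -0.0. Under the label Jarid2 null edgeR called 0 of 260 tests of the list, with 52 at an unadjusted p under 0.05, and DESeq2 called 0. Its medians ran from -0.12 at 24 h of mesoderm to 0.24 in undifferentiated mesoderm, where those of all genes were -0.04 and 0.02. Maml3, a coactivator that binds the Notch-RBPJ complex, was higher in Mtf2 null cells in 6 of these 8 comparisons. It was at 3.08 and 3.01 CPM against 0.493 and 0.767 in undifferentiated mesoderm libraries (log2 fold change 2.24, edgeR adjusted p = 1.5e-04), and at 27.5 and 19.6 against 1.56 and 1.32 CPM at 48 h of endoderm (4.02, SE 0.31, adjusted p = 1.1e-09). At that time Furin, the protease that cuts the Notch precursor, was at 110 and 92.2 against 28.2 and 26.3 CPM (1.90, adjusted p = 4.1e-10), and Adam10, the protease that cuts ligand-bound Notch, at 59.9 and 59.3 against 21.7 and 24.7 CPM (1.36, adjusted p = 1.4e-07). Psen2, a catalytic subunit of gamma-secretase, was higher in undifferentiated Mtf2 null cells, by 1.45 and 1.37 on the log2 scale in the 2 series. Poglut1, which adds glucose to Notch, and Mib2, a ubiquitin ligase for ligands, were each called in 1 series at that stage (1.09 in mesoderm and 1.02 in endoderm). Neurl1a, another such ligase, was lower at 5 h in both series (-1.65 and -1.25) and at 24 h of mesoderm (-1.22), and Neurl1b was higher at 48 h of mesoderm (1.71).

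In bulk embryoid bodies each label was compared with its WT line over the 4 days, with the day as a block in limma. Under the label Jarid2 null Notch3, Hes1 and Notch4 were higher than in JM8, the 3 calls among 27 member tests at an adjusted p under 0.05 (11.1%, all higher, against 9.96% of all gene tests, 4.99% higher, and 13.8% for this label). Notch3 was at 86.9, 54.2, 206 and 181 CPM on days 0, 2, 4 and 7 against 47.8, 25.1, 110 and 134 in JM8 (log2 fold change 0.82, SE 0.13, limma adjusted p = 0.013). It was higher on 4 of 4 days, and the call was lost without day 4 alone (0.80, adjusted p = 0.076). Hes1 was at 20.2, 28.7 and 59.9 CPM on days 0, 2 and 4 against 12.0, 13.4 and 28.3, with a log2 ratio of 0.24 on day 7 (over all days 0.78, SE 0.19, adjusted p = 0.038). Notch4 was at 37.2, 37.6, 6.34 and 15.9 CPM against 15.2, 10.0, 3.52 and 12.0 (1.08, SE 0.27, adjusted p = 0.041). Both were higher on 4 of 4 days, and both calls were lost without any one day (adjusted p of 0.067 to 0.17 for Hes1 and 0.081 to 0.12 for Notch4). Without the doubtful day 0 Notch3 alone was called. The primitive endoderm list was at 40.8, 102, 378 and 1220 CPM under this label against 5.7, 8.61, 27.1 and 101 in JM8, and its part was not tested. Elsewhere, against WT labelled E14, Notch3 and Notch4 were lower under this label at 24 h of mesoderm. Notch3 was then at 49.5 and 61.4 CPM against 147 and 144, with no call at the other directed times. In Jarid2 null single cells Notch3 was at 14.95, 34.88 and 58.76 CPM on days 0, 4 and 7. WT then had 30.78, 65.36 and 130 CPM, and the values were close on day 10. The difference in direction between the experiments was not tested.

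No member was called under the labels Mtf2 null or Eed null by limma, where 7.47% and 8.64% of all genes were, with 2 members each at an unadjusted p under 0.05, and edgeR on the recovered reads called 0. The receptors Notch1 and Notch2 came nearest. Notch1 had a log2 fold change of -0.64 under Mtf2 null (adjusted p = 0.077) and -0.65 under Eed null (adjusted p = 0.085). Notch2 was at 179, 155, 229 and 345 CPM under Eed null against 90.2, 63.5, 213 and 235 in J1, higher on 4 of 4 days without passing (0.73, adjusted p = 0.068). Day by day the columns of a sample were averaged, which left 1 value on each side, so no test was made. Of 108 member ratios 28 were past 2-fold (25.9%; 14 higher and 14 lower), against 19.9% over all genes (12.0% higher and 7.9% lower). Notch4 had no common direction under the label Mtf2 null, at 56.5 against 26.6 CPM on day 0 and 16.6 against 24.8, 4.51 against 12.1 and 5.09 against 11.8 CPM on days 2, 4 and 7. In averaged values Dll1 on day 2 was below its WT line under each label, at 3.68 against 9.39, 1.63 against 9.6 and 5.1 against 17.6 CPM for Mtf2 null, Jarid2 null and Eed null. The 2 Pcl1-3 WT columns behind 9.39 CPM lay far apart, at 16.2 and 2.51 CPM, against 3.99 and 3.36 in the Mtf2 null columns. The Mtf2 null difference thus rested on 1 of those WT columns. Dll3 on day 4 went apart between labels, at 16.2 against 4.92 CPM for Jarid2 null and 4.83 against 21.2 for Eed null. Jag1 on day 0 was at 16.6 against 40.1 CPM under Mtf2 null and 15.6 against 44.6 under Eed null. Hes5 was at 0 to 0.6325 CPM in all 24 samples.

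**Figure D4:**
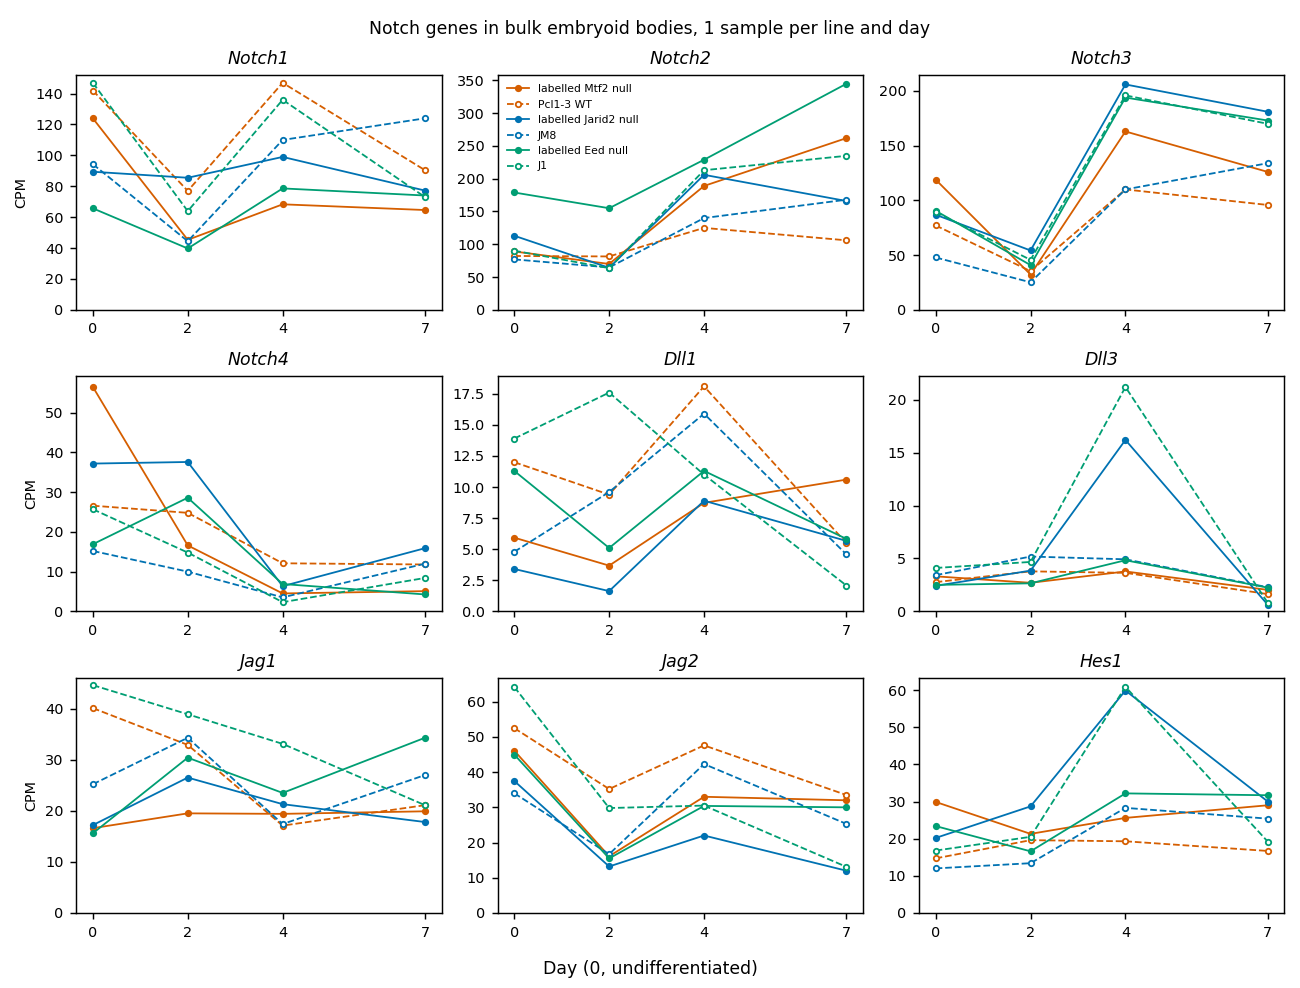
Levels of 9 members in bulk embryoid bodies (Hes5 is not drawn), 1 panel per gene, by day (x axis) in CPM on a linear y axis. Filled points with solid lines are the lines labelled null and open points with dashed lines their WT lines (1 sample per line and day, so no error bar), and Notch3 under the label Jarid2 null lies above JM8 on all 4 days, from 86.9 against 47.8 CPM on day 0 to 181 against 134 on day 7.

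Among the 36 other pathway genes 33 were tested in embryoid bodies by limma, with 2 higher and 2 lower under Jarid2 null, 2 higher under Eed null and 0 called under Mtf2 null, where 7 had an unadjusted p under 0.05 and edgeR on the recovered reads called 1. Over all genes 13.8%, 8.64% and 7.47% were called by limma under Jarid2 null, Eed null and Mtf2 null, so the list was not called more often than other genes. The median log2 fold changes of the list were 0.05, 0.26 and 0.16 under Jarid2 null, Eed null and Mtf2 null, where those of all genes were 0.01, -0.01 and 0.03. Under Jarid2 null Furin (log2 fold change 1.06, adjusted p = 9.3e-03) and Aph1a, a gamma-secretase subunit (0.85, adjusted p = 0.01), were higher, while Lfng, a glycosyltransferase that tunes which ligands activate Notch (-1.33, adjusted p = 0.029), and Ncstn, another gamma-secretase subunit (-0.48, adjusted p = 0.038), were lower. Under Eed null Neurl1b (1.91, adjusted p = 0.017) and Fbxw7, which marks active Notch for degradation (0.73, adjusted p = 0.047), were higher.

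In single cells there was 1 library per genotype and day, so that values carry an exact Poisson 95% interval for counting error only and no test was made. All 10 members were in the table of 4949 kept cells, of 5350 wells with at least 500 genes. The libraries reuse one set of well barcodes, of which 22 were kept in all 16, and all 4949 profiles were distinct. Of 101 member ratios with at least 20 UMIs in both libraries together, 27 were past 2-fold (26.7%; 13 higher and 14 lower), against 15.0% over all genes (8.07% higher and 6.93% lower). On day 0, in undifferentiated cells, Notch4 was at 16.39 CPM in WT (49 UMIs, interval 12.13 to 21.67), 4.884 in Mtf2 null (19 UMIs, 2.941 to 7.628), 3.737 in Jarid2 null (12 UMIs, 1.931 to 6.529) and 12.37 in Eed null (42 UMIs, 8.914 to 16.72). The intervals of Mtf2 null and Jarid2 null lay below that of WT, and that of Eed null overlapped it. The lower Notch4 of undifferentiated Mtf2 null and Jarid2 null cells here and in directed differentiation was not seen in bulk embryoid bodies. On day 0 Notch4 was at 56.5 CPM under Mtf2 null against 26.6 in Pcl1-3 WT. Under Jarid2 null it was at 37.2 CPM against 15.2 in JM8. Those day 0 labels are in doubt, and the difference between the experiments was not tested. From day 4 onwards Notch4 was between 2.215 and 9.141 CPM in all libraries.

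Notch3 was higher on days 4, 7 and 10 than on day 0 in each genotype, at 30.78 CPM in WT on day 0 and 65.36, 130 and 78.68 on the later days. The Jarid2 null libraries were lower on the first 3 days, at 14.95, 34.88 and 58.76 CPM, and near WT on day 10, at 70.88. Mtf2 null had 26.99, 62.21, 122.6 and 125.9 CPM and Eed null 12.96, 46.97, 79.81 and 90.32. Hes1, at 178 CPM in WT on day 0, reached 342.3 on day 7 and was at 122.3 on day 10, when the Mtf2 null, Jarid2 null and Eed null libraries held 271.8, 207.5 and 232.1 CPM.

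Hes5 was at no more than 2.099 CPM in all but 2 of the 16 libraries. On day 10 it was at 18.52 CPM in Mtf2 null (40 UMIs, interval 13.23 to 25.22) and 12.68 CPM in Jarid2 null (22 UMIs, 7.945 to 19.19), while WT had 0 UMIs (upper limit 2.639 CPM) and Eed null had 1 UMI. The neural genes Sox1, Pax6 and Nes (Neurog2 is not in the table) then summed to 109.7 CPM in Mtf2 null (237 UMIs), 69.72 in Jarid2 null (121 UMIs) and 58.97 in Eed null (79 UMIs), against 22.89 in WT (32 UMIs). The summed fibroblast list (Col1a1, Col1a2, Col3a1, Thy1, Dcn) was at 377.4 CPM in Mtf2 null and 244.3 in Jarid2 null, against 1338 in WT and 1463 in Eed null. The part of cell composition in these values was not tested.

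The ligand Dll3 was at 31.55 CPM in WT and 28.25 in Mtf2 null on day 7, but at 5.771 in Jarid2 null and 11.04 in Eed null. On day 10 Mtf2 null had 54 UMIs of Dll3 and WT 10, a log2 ratio of 1.81 in CPM. Dll1 on day 4 was highest in Eed null, at 40.76 CPM (92 UMIs, interval 32.86 to 49.99) against 21.01 in WT (15.32 to 28.11). In Mtf2 null on day 10, 7 members were past 2-fold higher than in WT (9.26% of all genes were), namely Hes5 (against a floor of 3 UMIs in WT), Dll1 (from 2 UMIs in WT), Dll3, Jag2, Jag1, Hes1 and Notch2. None was past 2-fold lower on that day.

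In the study's 22 clusters, which were made from these same cells so that their differences are a description, the members peaked in different clusters, some of them shared. Notch1 was highest in cluster 19 (57 cells), at 212.2 CPM (90 UMIs), where Notch4 was highest too, at 35.36 CPM (15 UMIs). The endothelial list summed to 2023 CPM there. Hes5 was highest in cluster 15 (136 cells), at 46.06 CPM from 40 UMIs, of which 21 came from Mtf2 null and 16 from Jarid2 null on day 10 and 3 from Jarid2 null on day 7. Cluster 15 also held 47.21 CPM of Dll1 and 34.54 CPM of Jag1. Cluster 11 (240 cells) had the second highest Hes5, at 14.82 CPM, with 18 of its 19 UMIs from Mtf2 null on day 10, and the highest Notch3 (172.4 CPM) and Jag2 (43.68 CPM).

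Dll3 and Hes1 shared their peaks. Cluster 14 (190 cells, streak and mesoderm list 1858 CPM) held 91.62 CPM of Dll3 (135 UMIs) and 504.3 CPM of Hes1, and cluster 20 (49 cells, streak list 1160 CPM and presomitic list of Tbx6, Msgn1, Mesp2 and Rspo3 541.1 CPM) held 69.73 and 471.4 CPM. Dll1 was highest in cluster 9 (258 cells, 217 of them from Eed null on day 4), at 63.09 CPM. Jag1 was highest in clusters 13 and 21, at 38.92 and 38.29 CPM. Cluster 13 had a fibroblast list of 1586 CPM, and cluster 21 a primitive endoderm list of 1575 CPM. The day 0 clusters repeated the Notch4 order of the libraries that fill them, with 15.64 CPM in cluster 3 (mostly WT), 11.55 in cluster 6 (Eed null), 5.047 in cluster 0 (mostly Mtf2 null) and 3.91 in cluster 8 (mostly Jarid2 null).

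**Figure D5:**
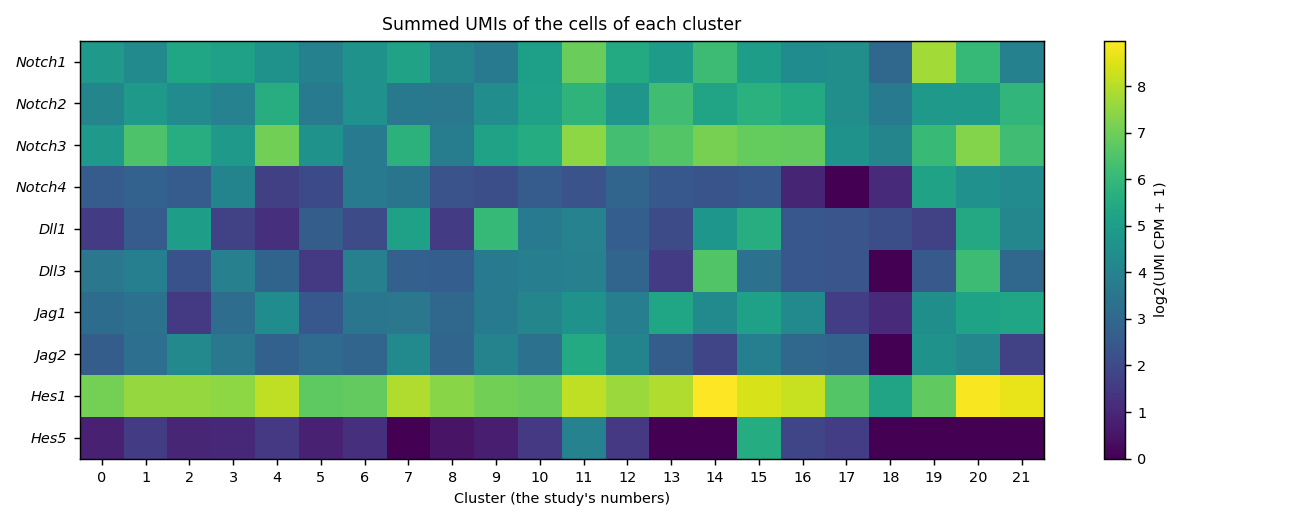
Heat map of the level of each member (rows) in each of the 22 single-cell clusters (columns), with log2(UMI CPM + 1) as the colour. Hes5 stands out in cluster 15 at 46.06 CPM, Notch1 in cluster 19 at 212.2 CPM and Dll3 in clusters 14 and 20 at 91.62 and 69.73 CPM.

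Across the 24 libraries of each directed series, the genes whose log2 CPM followed a member most closely among 10840 compared were Arhgef17 for Notch1 (Pearson's r of 0.948 in mesoderm and 0.97 in endoderm), Plxna1 for Notch2 (0.945 and 0.929), Igf1r for Notch3 (0.965 and 0.919), Tcl1 for Notch4 (0.863 and 0.912), Paxip1 for Jag1 (0.898 and 0.917), Dscaml1 for Jag2 (0.94 and 0.945) and Pros1 for Hes1 (0.779 and 0.749). The libraries share their genotypes and times, and the undifferentiated ones of the 2 series may not be independent, so these values describe a common time course and carry no test.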

How the data were processed

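Expression was compared by genotype and time in 88 samples, and the 10 members and the gene lists were chosen with earlier results of these data known. For directed differentiation the authors deposited estimated counts per gene from Salmon (ribosomal RNA depleted, GRCm38), here rounded to whole numbers, with 2 libraries per group. For embryoid bodies the authors deposited a signal per gene, namely read counts over DESeq2 size factors (46 columns, 24 samples, columns of a line and day averaged). 45 columns gave whole reads (100.0% of values within 0.02), and edgeR on those reads called 1042, 1987 and 998 genes for Mtf2 null, Jarid2 null and Eed null. For single cells the authors deposited UMI counts, mapped with Bowtie2 and counted with HTSeq, for 4949 cells with their clusters at resolution 2.5. Other upstream versions are not given in the sources used here.

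CPM used TMM library sizes. Directed series were fitted separately in edgeR 4.0.16 (R 4.3.3; quasi-likelihood, all 24 libraries, filterByExpr at a count of 10, total 15; 18361, 19261 and 16655 genes tested in mesoderm, endoderm and undifferentiated libraries together), with a call at an adjusted p (Benjamini-Hochberg) under 0.001 and a log2 fold change above 1. Embryoid bodies were fitted in limma 3.58.1 on log2 CPM with a prior count of 2, for 15850 genes of at least 1 CPM in 4 of 24 samples, and adjusted p under 0.05. Single-cell CPM are summed UMIs over the library total, without a doublet caller, and a library at 0 UMIs entered a ratio at a floor of 3 UMIs. Depth limits low members, and intervals cover counting error only. DESeq2 1.42.0, other scalings, filters and left-out libraries were alternatives, 2 of them chosen after seeing the data. Fits were tested on simulated data. All columns were mapped, and the members were named by the rule of the choice itself, with other pathway genes named where called. Replicate numbers carry no stated pairing. Of the neural marker list, 1 gene is not reported here, and its sums, chosen after seeing the data, cover the other 4. All directed differentiation columns but 2 carry the time of their sample's label.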

Additional observations from a re-analysis of the deposited data

Results flagged for a closer look

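For 11 pairs of values both libraries of one group lay above and both of the other below in mesoderm, and the reverse in endoderm. No share of such pairs over all genes was taken, so the count is not read as a trait of the members. The 2 series were normalised separately and the difference between them was not tested. From undifferentiated to 48 h, Dll3 had a log2 fold change of -0.59 in WT mesoderm and 1.47 in WT endoderm, and -0.70 and 1.83 under the label Jarid2 null. Dll1 under the label Jarid2 null had -0.70 and 1.54, and Jag1 in Mtf2 null had -0.21 and 1.55. The endoderm value of each of these 4 pairs was called and the mesoderm value was not. Against WT, no value of the other 7 pairs was called. Jag1 in Mtf2 null was at 0.38 in mesoderm and -0.49 in endoderm at 5 h, and at -0.42 and 0.45 at 48 h. Jag1 under the label Jarid2 null was at 0.11 and -0.06 at 5 h and at -0.22 and 0.59 at 48 h. Jag2 under that label was at -0.28 and 0.12 at 5 h and at -0.44 and 0.36 at 24 h, and Notch4 at -0.86 and 0.47 at 48 h.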

How the results depend on the processing

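Of 55 called member values 38 kept their direction and side of the threshold under the alternatives that keep all libraries, 30 did so also with each library left out, and none reversed under any of them. Under the label Jarid2 null the count of member calls was 3, and was 5 with no limit on the fold change, with DESeq2 or with no filter on low counts, and 0 with only the 2 groups compared in the fit. The WT steps gave 15 calls and 9 with only the 2 groups compared. The interaction gave 0 and 1 by DESeq2 and 5 with no filter. In embryoid bodies the 3 calls became 0 with no filter on low values and 0 with no block for the day, and 28 ratios by day became 2 at a log2 ratio above 2. In single cells 27 ratios became 13 with each cell thinned to 2500 UMIs, which leaves fewer molecules. With 1 library left out the counts ran from 5 to 7 for Mtf2 null, 2 to 4 for Jarid2 null, 13 to 17 for WT steps, 24 to 27 for 48 h against undifferentiated, 0 to 3 for interactions and 1 to 3 for undifferentiated libraries together, and without 1 day from 0 to 1 in embryoid bodies. Among 48 h calls, Jag2 and Dll3 in WT endoderm were lost without the first 48 h library (log2 fold changes of 0.93 and 1.04) or the second undifferentiated library (1.02 and 1.24, adjusted p = 0.0023 and 0.01), and Jag2 in Mtf2 null endoderm without the first 48 h (0.74) or undifferentiated (0.86) library. The cause was not tested.

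With the replicate number as a block the counts were 6 for Mtf2 null, 3 for Jarid2 null, 15 for WT steps, 26 for 48 h, 0 for interactions and 2 for undifferentiated libraries together, so no count moved. No pairing by number ran through a whole series. Between pairs of groups the correlation of deviations had a median of 0 in mesoderm (-0.42 to 0.4) and 0.04 in endoderm (-0.37 to 0.45). It was above 0.1 in 24 of 66 pairs of groups in mesoderm and 25 of 66 in endoderm.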
